A study of Mus musculus with 10 samples.

Results

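A total of 1491 Pax5 binding sites lay at promoters in Pax5R31Q/- pro-B cells and had no overlapping counterpart in Pax5+/+ pro-B cells. They were the peaks of the Pax5R31Q/- list that shared no base with any peak of the Pax5+/+ list and had at least 1 base within 1 kb of a RefSeq transcription start site (TSS) on GRCm38. They made up 7.92% of the 18821 peaks with Pax5-R31Q, 43.0% of the 3470 peaks found only there and 14.3% of its 10458 promoter peaks. The Pax5+/+ list held 41983 peaks, of which 10294 were at promoters. In the Pax5R31Q/- list 8967 promoter peaks overlapped a Pax5+/+ peak, 1060 promoter peaks were found only in the Pax5+/+ list, and 1979 peaks found only with R31Q were distal, that is, farther than 1 kb from a TSS.

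The study examined how the R31Q substitution in the paired domain of Pax5 changes binding and gene expression in mouse C57BL/6 pro-B cells from bone marrow. ChIP-seq with an antibody against the paired domain was done in cultured pro-B cells, with 1 library from Rag2-/- cells, which are wild-type for Pax5 and are called Pax5+/+ in the following, and 1 from Pax5R31Q/- cells, which carry the R31Q allele over a null allele. RNA-seq was done on sorted cells that had not been cultured, with 2 libraries each of Pax5+/+, Pax5+/-, Pax5R31Q/- and Pax5fl/fl Vav-Cre cells, in which Cre is active throughout the blood lineages; the latter are labelled as progenitor cells and are called Pax5-/- in the following. Peak lists without replicates allow no test, and every difference between peak sets is given as a description. The lists hold neither heights nor depth, so whether a site missing from a list was unbound or under the threshold of the peak caller cannot be told apart. The antibody was raised against the domain that carries the substitution, and its affinity for the mutant protein was not tested here. The label of the mutant ChIP-seq library names Rag2 in its description and Pax5 among its characteristics, and the latter was followed. The 2 lists also stood apart on the sex chromosomes, and results that rest on these are given with and without them. The sample list of the study names a Rag2 deficiency for the Pax5+/+ cells only, so the Rag2 and Pax5 genotypes cannot be told apart in the comparison of the lists.

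Pax5 is the transcription factor that commits progenitors to the B cell lineage. It activates genes of the B cell program and represses genes of other lineages. Its paired domain consists of an N-terminal and a C-terminal subdomain, each of which contacts its own part of a long and degenerate recognition sequence, and R31 lies in the N-terminal subdomain. Promoters of widely expressed genes in mammals are mostly rich in CpG dinucleotides and nucleosome-poor, while many promoters of tissue-restricted genes are poor in CpG.

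The sequences of the promoter peaks found only with R31Q showed 2 features, few matches to the Pax5 recognition sequence and, at most sites, many CpG dinucleotides. No member matched the paired-domain consensus of 15 positions with fewer than 2 mismatches in the 300 bp around its midpoint, and 2 members, at *Tmem29* and *C77080*, matched it with 2. The matches below are shown as examples of the closest matches among the members, and none lies in an exon. Capitals mark the 15 positions aligned to the consensus, including those that do not match. Each sequence is from GRCm38 and written 5′ to 3′ on the strand of the gene.
*Tmem29*, chrX:150495074-150495128, minus strand, 92 to 38 bp upstream of the TSS, 2 mismatches: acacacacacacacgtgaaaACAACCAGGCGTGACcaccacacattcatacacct
*Rabac1*, chr7:24972370-24972424, minus strand, 304 to 358 bp downstream of the TSS in an intron, 3 mismatches: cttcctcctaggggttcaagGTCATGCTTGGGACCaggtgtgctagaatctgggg
*Tgfbr3*, chr5:107289105-107289159, minus strand, 470 to 524 bp downstream of the TSS in an intron, 3 mismatches: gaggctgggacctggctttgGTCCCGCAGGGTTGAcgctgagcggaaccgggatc
The match of *Tmem29* reads in the direction of the gene, and those of *Rabac1* and *Tgfbr3* lie on the opposite strand.

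The following promoters, which do not span the CpG content of all members, are of 4 genes whose expression differed between Pax5R31Q/- and Pax5+/+ cells. They are the 2 genes with the largest increase and the 2 with the largest decrease on the log2(TPM + 1) scale whose peak held a stretch of 120 bp or more outside annotated exons. Capitals mark the CG dinucleotides, and each sequence is taken from the longest stretch of the peak outside exons, at its end towards the TSS, on the strand of the gene. Distances are to the TSS nearest to the midpoint of the peak, and the stretch at *Rbm24* ends directly before the most upstream annotated start of that gene. It has a CpG observed to expected ratio of 0.157, against 0.569 in the 300-bp window at the midpoint of that peak.
*Ehd3*, chr17:73804661-73804840, plus strand, 180 to 1 bp upstream of the TSS, 13 CG dinucleotides: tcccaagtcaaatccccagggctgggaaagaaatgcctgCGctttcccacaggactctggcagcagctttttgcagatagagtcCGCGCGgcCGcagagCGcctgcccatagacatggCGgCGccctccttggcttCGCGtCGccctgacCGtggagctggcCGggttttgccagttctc
*Slc52a3*, chr2:151996331-151996510, plus strand, 180 to 1 bp upstream of the TSS, 12 CG dinucleotides: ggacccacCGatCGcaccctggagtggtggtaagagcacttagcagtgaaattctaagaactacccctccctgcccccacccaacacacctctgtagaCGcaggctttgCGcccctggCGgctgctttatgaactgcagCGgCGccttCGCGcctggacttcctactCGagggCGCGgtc
*Rbm24*, chr13:46417922-46418101, plus strand, 378 to 199 bp upstream of the TSS, 2 CG dinucleotides: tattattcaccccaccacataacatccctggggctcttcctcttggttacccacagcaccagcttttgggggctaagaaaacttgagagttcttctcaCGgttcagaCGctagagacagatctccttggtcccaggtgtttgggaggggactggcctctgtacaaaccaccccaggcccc
*Nedd9*, chr13:41487363-41487488, minus strand, 128 to 3 bp upstream of the TSS, 3 CG dinucleotides: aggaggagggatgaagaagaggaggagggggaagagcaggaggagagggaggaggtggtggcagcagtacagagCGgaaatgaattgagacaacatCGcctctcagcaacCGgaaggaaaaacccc
Among these stretches, 1 of a gene that rose and 1 of a gene that fell held over 10 CG dinucleotides.

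The peaks found only with R31Q sat at the start site itself. The midpoint of the median member was 101 bp from the nearest TSS (quartiles 40 and 285 bp), against 89 bp for promoter peaks in both lists and 384 bp for promoter peaks found only in the Pax5+/+ list. A TSS lay within the peak at 1122 of the 1491 members (75.3%), at 88.9% of the shared and at 37.5% of the Pax5+/+-only promoter peaks. The midpoint was upstream of the TSS at 611 members (41.0%), and 283 members had a TSS of the opposite strand within 1 kb of the nearest TSS. By the RefSeq annotation, 856 midpoints (57.4%) were in an exon, 323 (21.7%) in an intron and 312 (20.9%) outside genes. The distance to a TSS was limited to 1 kb by the choice of the peaks, but the placement within that window was not.

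**Figure D1:**
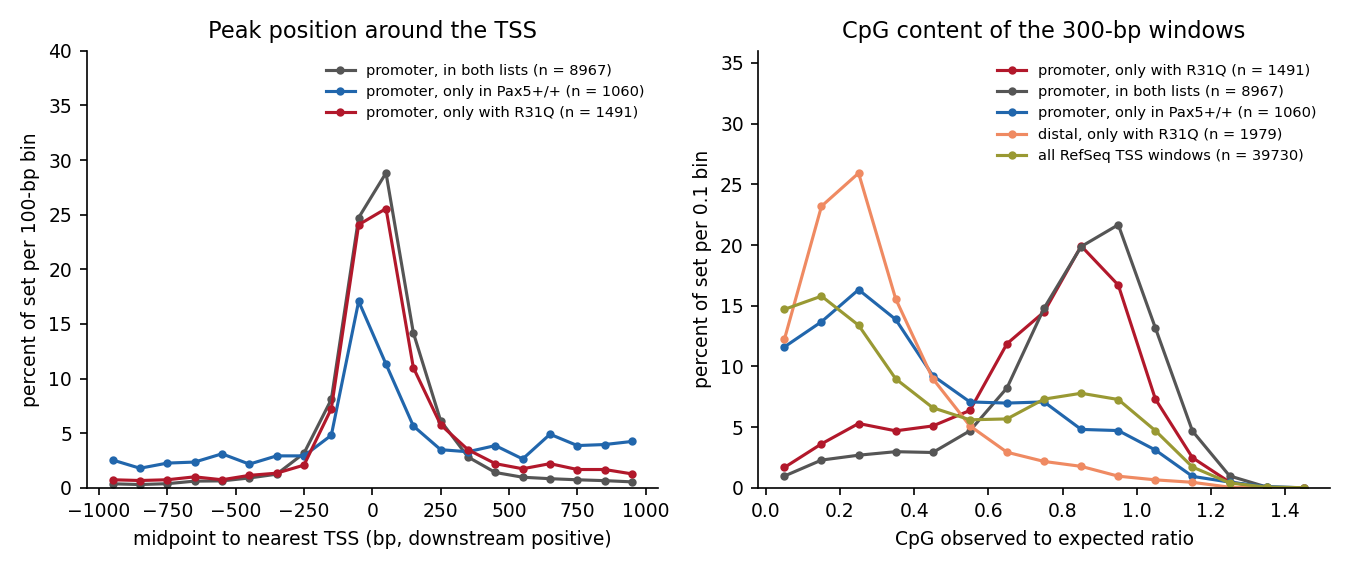
The left panel plots the percent of each promoter peak set per 100-bp bin against the distance of the peak midpoint from the nearest TSS in bp, downstream positive, and the right panel the percent of each set per bin of 0.1 of the CpG observed to expected ratio. The peaks found only with R31Q (red) follow the shared promoter peaks (grey) in both panels, while the Pax5+/+-only promoter peaks (blue) are spread over the window and have a median CpG ratio of 0.356.

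The windows of 300 bp at the members had a median GC content of 64.3% and a median CpG observed to expected ratio of 0.778 (quartiles 0.566 and 0.912). This ratio divides the CG dinucleotides of a window by the number its C and G content gives. Shared promoter peaks had a median ratio of 0.853, Pax5+/+-only promoter peaks of 0.356, distal peaks found only with R31Q of 0.255, and windows of the same length at the TSSs of all 39730 RefSeq genes of 0.364. The window was CpG-rich, with a GC content over 50% and a ratio over 0.6, at 1067 members (71.6%), 82.1% of the shared, 23.7% of the Pax5+/+-only promoter peaks, 7.78% of the distal peaks found only with R31Q and 32.6% of all TSS windows. The 424 members that were not CpG-rich were narrower, with a median width of 413 bp against 560 bp, and covered a TSS in 53.3% of the cases against 84.0% of the CpG-rich members.

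Motifs were counted on both strands of the 300-bp windows. The Pax5 paired-domain consensus with at most 3 mismatches occurred at 61 members (4.09%). It occurred at 6.18% of the shared, 15.2% of the Pax5+/+-only promoter peaks, 4.35% of the distal peaks found only with R31Q and 3.49% of all TSS windows, so the share of the members was close to that of TSSs in general. Searched over their whole length in place of 300 bp, 7.51% of the members held such a match. Most members are longer than 300 bp and the other sets were not searched this way, so this share is not comparable with theirs. With at most 2 mismatches the shares were 0.134% for the members, 0.903% for shared and 3.96% for Pax5+/+-only promoter peaks. GCGTGAC, the part of the consensus that the N-terminal subdomain contacts, occurred at 2.68% of the members, 5.60% of the shared peaks, 4.34% of the Pax5+/+-only promoter peaks and 1.90% of all TSS windows. Among CpG-rich windows it was found at 2.91% of the members and 4.11% of the TSSs, and the consensus with at most 3 mismatches at 3.75% and 4.62%. GCANCCA, the part contacted by the C-terminal subdomain, was found at 26.6% of the members, 22.5% of the shared peaks, 26.2% of the Pax5+/+-only promoter peaks, 20.9% of all TSS windows and 21.6% of the CpG-rich TSS windows. GGGCGG, which is bound by SP1 and KLF proteins, occurred at 57.7% of the members and 68.8% of the shared peaks, against 32.6% of all TSS windows and 75.6% of the CpG-rich TSS windows. CCGGAAG, an ETS motif, was at 15.2% of the members, 17.9% of the shared peaks, 7.99% of all TSS windows and 18.5% of the CpG-rich TSS windows. TGTGGT, a RUNX motif, was at 15.4% of the members, 16.8% of all TSS windows, 8.85% of the CpG-rich TSS windows and 40.6% of the distal peaks found only with R31Q. CCCNNGGG, part of the EBF1 motif, was present at 23.7% of the members, 22.7% of the shared peaks, 13.2% of all TSS windows and 21.9% of the CpG-rich TSS windows. Among CpG-rich members only, GCANCCA was found at 24.1%, GGGCGG at 68.98%, CCGGAAG at 18.2%, TGTGGT at 10.03% and CCCNNGGG at 25.02%. It is these shares, and not those of all members, that compare with the CpG-rich TSS windows. The RUNX share was then close to the 8.85% of those windows.

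**Figure D2:**
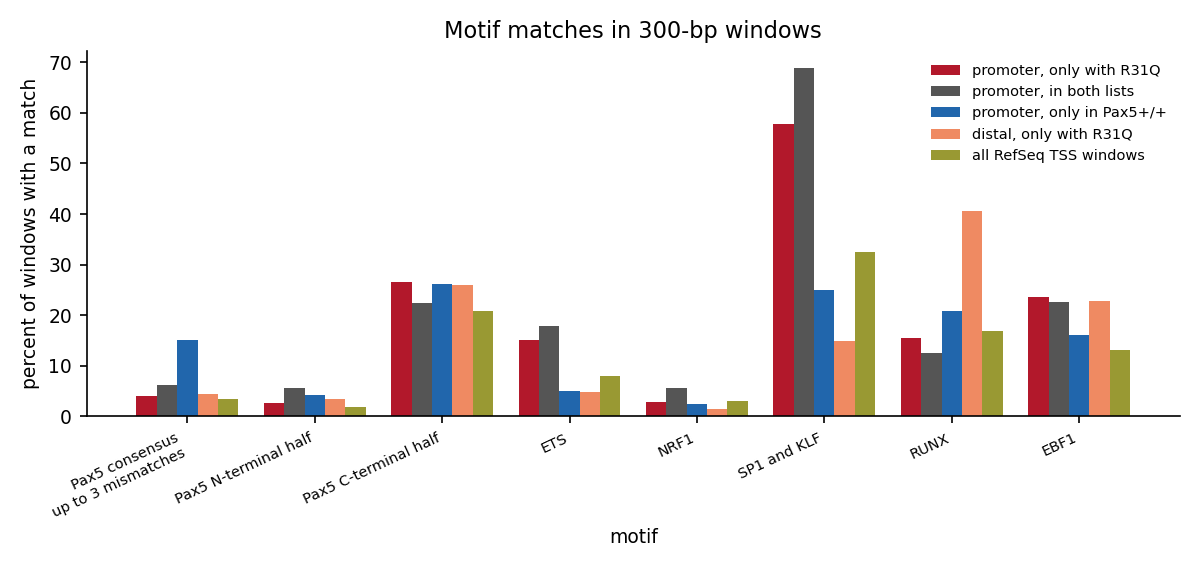
Bars give the percent of 300-bp windows with a match to each motif in the 4 peak sets and at the TSSs of all RefSeq genes. The Pax5 consensus with up to 3 mismatches occurs at 15.2% of the Pax5+/+-only promoter peaks (blue) but at 4.09% of the promoter peaks found only with R31Q (red), and the RUNX motif at 40.6% of the distal peaks found only with R31Q (orange).

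The members were narrow among the promoter peaks of the Pax5R31Q/- list. Their median width was 514 bp (quartiles 390.5 and 698.5 bp, range 228 to 2824 bp), against 747 bp for the shared promoter peaks. When the 10458 promoter peaks were divided into 5 classes of equal size by width, 31.3% of the narrowest class (228 to 486 bp) were found only with R31Q. This share was 17.5%, 10.7% and 7.74% in the following classes and 4.02% in the widest (1039 to 9640 bp). Members were chosen for sharing no base with a Pax5+/+ peak, and a wider peak has more bases that can meet one. The selection itself thus depends on width, and how much of the fall comes from this was not tested. Whether the narrow peaks are weak peaks near the calling threshold was not tested, since the lists hold no heights. Distal peaks found only with R31Q had a median width of 379 bp and Pax5+/+-only promoter peaks of 313 bp. Among the 10 widest members were those at *Setd7*, which encodes a lysine methyltransferase (2460 bp, chr3:51559564-51562023), *Arid1b*, a BAF complex subunit (2089 bp), *Frat1*, a Wnt pathway component (2031 bp), *Nol4l* (1976 bp) and *Ptch1*, the Hedgehog receptor (1897 bp). The Pax5+/+ peak nearest to the member at *Setd7* was 74034 bp away, whereas that nearest to the member at *Arid1b* was 145 bp away.

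The nearest Pax5+/+ peak was at a median distance of 13151 bp, and 241 members (16.2%) had a Pax5+/+ peak within 1 kb, 160 of them within 500 bp and 52 within 200 bp. This share depended on the rule for overlap, and was 52.5% when overlaps under 0.5 of both peaks were allowed and 39.7% when only peaks of at least 300 bp were used in both lists. The smallest gap was 19 bp, and 8 members were within 100 bp of a Pax5+/+ peak. At the other limit of the selection, 13 members had their nearest edge 900 to 1000 bp from a TSS (widths 257 to 688 bp), and 21 peaks found only with R31Q whose edge lay up to 100 bp beyond this limit (widths 234 to 1221 bp) were not counted. Of the 1281 genes of the expression tables that had a member nearest to one of their TSSs, 303 also had a Pax5+/+ promoter peak, and 978 had none.

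**Figure D3:**
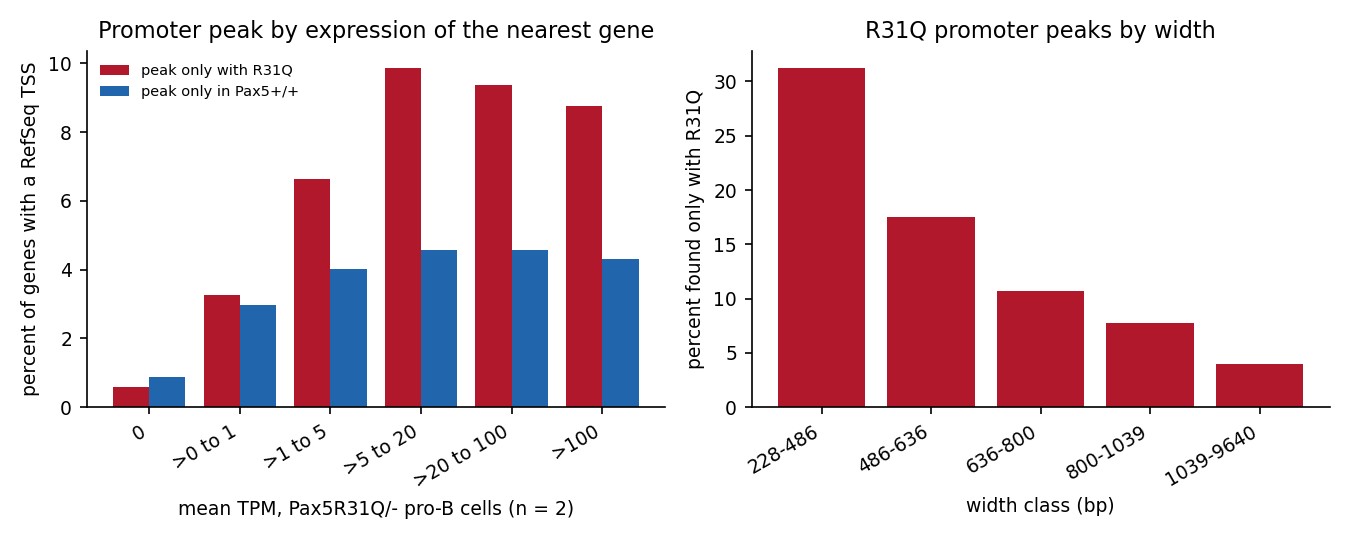
The left panel plots the percent of genes with a RefSeq TSS that had a promoter peak found only with R31Q (red) or only in Pax5+/+ cells (blue) in 6 classes of mean TPM over both Pax5R31Q/- libraries. The right panel plots the percent of the Pax5R31Q/- promoter peaks found only there in 5 width classes in bp, which falls from 31.3% to 4.02%. Wider peaks have more bases that can meet a Pax5+/+ peak.

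The X chromosome held more of these sites than its share of promoter peaks. Of the 207 promoter peaks of the Pax5R31Q/- list on the X chromosome, 70 (33.8%) were found only with R31Q. On the autosomes the share was 13.8% (1418 of 10246 peaks) and ranged from 9.62% on chromosome 14 to 16.6% on chromosome 13. The X-linked sites, named here for the known function of their genes, included *Hprt*, a purine salvage enzyme, *Ogt*, the O-GlcNAc transferase, *Ikbkg*, the regulatory subunit of the IKK kinase, *Ddx3x*, *Med12*, *Hcfc1*, *Pgk1*, *Rpl10*, *Rpl39* and *Rps4x*. Counting all peaks, promoter and distal, the Pax5R31Q/- list was instead short on the X chromosome, with 321 peaks against 2258 in the Pax5+/+ list (14.2%), while on the autosomes it had 18469 against 39394 peaks (46.9%). The lists also differed on the Y chromosome, where the Pax5+/+ list had 31 peaks within the first 3.6 Mb and the Pax5R31Q/- list had 0. Of the members, 3 were on the Y chromosome, and 1418 remained when only autosomes were counted. These 1418 had a median width of 514.5 bp, a median distance to the TSS of 103.5 bp, a median CpG ratio of 0.778 and the Pax5 consensus in 3.81% of the windows, and their genes gave 32 higher and 25 lower calls in Pax5R31Q/- relative to Pax5+/+ cells, against 33 and 25 for all members. The sex of the animals is not given for these libraries, and its part in the count of X-linked sites was not tested. Among the 62 X-linked genes with a member that were tested for expression, 1 was called higher in Pax5R31Q/- than Pax5+/+ cells and 0 lower by limma at an adjusted p under 0.05, with a median log2 difference of 0.12, where the background over all tested genes was 1.62% higher and 2.55% lower.

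**Figure D4:**
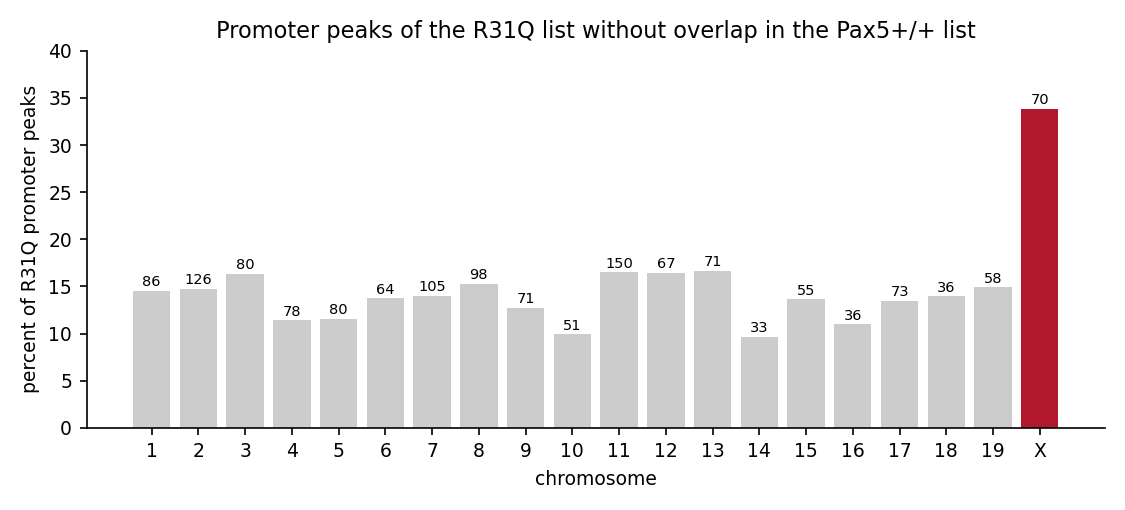
Bars give the percent of the Pax5R31Q/- promoter peaks on each chromosome that overlapped no Pax5+/+ peak, with the number of such peaks above each bar. The X chromosome (red) reaches 33.8%, and the autosomes (grey) lie between 9.62% and 16.6%.

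The nearest TSS belonged to a messenger RNA at 1233 members (82.7%) and to a long noncoding RNA at 150 (10.1%). A further 18 members were at transfer RNA genes, which are transcribed by RNA polymerase III (1.21%, against 0.691% of the shared and 1.70% of the Pax5+/+-only promoter peaks), 11 at small nuclear RNAs, 12 at microRNA transcripts and 11 at V gene segments. The peak at the glycine transfer RNA gene *n-TGtcc3* (chr1:171101765-171103576) was 1812 bp wide, among the 10 widest of all members. The 18 peaks at transfer RNA genes had a median width of 520.5 bp.

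Expression of the nearest gene was measured in TPM, which divides reads by gene length and then by the total of the library. Of the 1491 members, 1320 had a nearest gene in the expression tables, which gave 1281 distinct genes. Of these, 1128 had at least 1 TPM in at least 1 library and were tested, 153 did not, and 21 of the latter were at 0 in all 8 libraries. Counts of changed genes below therefore refer to the 1128 genes that passed this filter. The median TPM of the tested genes at members was 26.8 and 25.4 in the 2 Pax5R31Q/- libraries and 25.5 and 25.6 in the Pax5+/+ libraries, close to the 23.1, 22.2, 22.0 and 21.7 of all 13436 tested genes. Genes at shared promoter peaks had a median of 37.9 TPM in Pax5R31Q/- cells (mean of both libraries). A member was at 0.588% of the genes with a mean of 0 TPM in Pax5R31Q/- cells, 3.25% of those up to 1 TPM, 6.64% up to 5, 9.87% up to 20, 9.38% up to 100 and 8.77% above 100 TPM. Shared promoter peaks, in contrast, went from 1.75% to 74.4% over the same classes. The share of genes with a member was thus similar in the 3 classes above 5 TPM, whereas that of shared peaks went on increasing, from 53.9% to 74.4%. Most genes of these classes already had a shared peak, and shares among the genes without one were not worked out. The similar shares of members are therefore not read as a lack of relation to expression.

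The most highly expressed genes with a member were *Eef1a1*, the translation elongation factor, with 5536 and 5682 TPM in the Pax5R31Q/- libraries and 5331 and 4442 in the Pax5+/+ libraries, and *B2m*, the light chain of MHC class I, with 4757 and 5030 against 3792 and 4731 TPM. Neither passed the test (limma, adjusted p = 0.532 and 0.639). *Crip1*, *Rpl19* and *Rpl41* followed. *Crip1*, which encodes a LIM domain protein, had 1929 and 2153 TPM in Pax5R31Q/- and 3732 and 4377 TPM in Pax5+/+ cells and fell by 0.99 ± 0.21 (SE) on the log2 scale (adjusted p = 0.0423). This call was lost when any of the 4 libraries compared was left out, with adjusted p-values of limma between 0.0691 and 0.287.

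*Pax5* itself had 306 and 293 TPM in the Pax5R31Q/- libraries, 418 and 444 in Pax5+/+, 272 and 287 in Pax5+/- and 1242 and 1409 in the Pax5-/- libraries. The gene-level value does not tell which exons it comes from and is no check of the deletion. The summed TPM of 11 pro-B cell markers was 14689 and 15124 in the Pax5R31Q/- libraries and 15944 and 18697 in the Pax5+/+ libraries, and 8489 and 7759 in Pax5-/-. That of 6 markers of T and NK cells was 101 and 104 in Pax5R31Q/-, 72.9 and 71.9 in Pax5+/+ and 334 and 302 in the Pax5-/- libraries. The sums of 6 myeloid markers were 521 and 484 in Pax5R31Q/-, 323 and 239 in Pax5+/+ and 960 and 176 TPM in Pax5-/- cells. In Pax5+/- cells these sums were 15697 and 14856 (pro-B), 104 and 108 (T and NK) and 366 and 752 TPM (myeloid). Erythroid and stromal markers summed to at most 27.4 and 15.3 TPM in any library, and no marker found in the tables was at 0 in all libraries. In bulk samples a change in the number of cells of a type and a change in RNA per cell cannot be told apart, and the part of other cells in the differences below was not tested.

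Expression was compared with limma on log2(TPM + 1) over all 13436 tested genes, with 2 libraries per genotype and Benjamini-Hochberg adjustment. Fold changes on this scale understate those of weakly expressed genes. Nothing in the labels ties libraries to separate animals, so the p-values measure the spread between these libraries. Of the 1128 genes at members, 33 (2.93%) were higher and 25 (2.22%) were lower in Pax5R31Q/- than Pax5+/+ cells at an adjusted p under 0.05. The background over all tested genes was 1.62% higher and 2.55% lower. The median log2 difference of the genes at members was 0.03, against 0.04 for all tested genes. With a stricter call, which took the thresholds of the study (more than 3-fold, a mean above 5 TPM, no immunoglobulin genes) but the limma test and the fold on the log2(TPM + 1) scale in place of the count model of the study, 11 (0.975%) were higher and 7 (0.621%) lower, against a background of 0.275% and 0.558%. These counts depended on single libraries. With each Pax5+/+ and each Pax5R31Q/- library left out in turn, they fell in most fits. Without Pax5+/+ replicate 1 the lower genes outnumbered the higher ones. The share of all tested genes called in these fits is not given here, so this balance is not read as a result about the members. The remaining library was each time assumed to vary like the others.

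The calls were split unevenly by whether the gene also had a Pax5+/+ peak at one of its TSSs. Among the 839 tested genes without such a peak, 28 (3.34%) were higher and 11 (1.31%) were lower. Among the 289 genes with a Pax5+/+ promoter peak, 5 (1.73%) were higher and 14 (4.84%) were lower. For comparison, genes at Pax5+/+-only promoter peaks were lower in 9.18% and higher in 1.87% of 588 cases, and genes with no promoter peak in either list were lower in 3.11% and higher in 2.32% of 3184. Genes at distal peaks found only with R31Q were higher in 4.49% and lower in 4.13% of 824 cases, both above the shares at members, and genes at shared promoter peaks were higher in 1.21% and lower in 2.31% of 7281. The sets were not tested against each other. Of the 861 tested genes with a CpG-rich member, 18 (2.09%) rose and 15 (1.74%) fell, and of the 282 with another member 15 (5.32%) rose and 10 (3.55%) fell, with genes that had members of both kinds counted in each.

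Of the 1128 genes, 38 were called with a difference over 2-fold and a mean above 5 TPM, of which 24 (2.13%) were higher and 14 (1.24%) lower in Pax5R31Q/- cells. The background under the same rule was 0.804% higher and 1.24% lower over all tested genes, and 2.55% of the genes at distal peaks found only with R31Q were higher. The values of the Pax5R31Q/- and Pax5+/+ libraries did not overlap in these genes, which the choice by the test practically fixes. *Ehd3*, which encodes a protein of endocytic recycling, rose most on the log2(TPM + 1) scale, whereas the ratio of mean TPM was larger for *Slc9a2*, *S1pr3*, *Smoc1* and *Cacna1h*. *Ehd3* had 36.5 and 32.6 TPM in Pax5R31Q/-, 3.87 and 3.26 in Pax5+/+, 6.06 and 5.53 in Pax5+/- and 190 and 226 TPM in Pax5-/- cells. The log2 difference between Pax5R31Q/- and Pax5+/+ was 2.96 ± 0.15 (SE, adjusted p = 0.000264). Its level in Pax5R31Q/- cells lay between those of the other genotypes, and the difference to Pax5-/- was -2.55 ± 0.15 (adjusted p = 4.83e-05). The member, 549 bp wide, covered the CpG-rich start site shown above and was 412 bp from a Pax5+/+ peak. *S1pr3*, a receptor for sphingosine-1-phosphate, had 8.21 and 6.75 TPM in Pax5R31Q/- and 0.433 and 0.701 TPM in Pax5+/+ cells, a log2 difference of 2.44 ± 0.18 (adjusted p = 0.000916). The Pax5-/- libraries had 7.78 and 7.51 TPM, and the difference of Pax5R31Q/- to Pax5-/- was -0.03 ± 0.18 on this scale, which did not pass the test (adjusted p = 0.903). *Cd244a*, an inhibitory and activating receptor of NK cells, had 25.2 and 21.2 TPM against 4.23 and 5.68 in Pax5+/+ cells, a log2 difference of 2.03 ± 0.20 (adjusted p = 0.0026), and 16.0 and 21.8 TPM in Pax5-/- cells. Its member was poor in CpG (ratio 0.154).

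Several of the genes that rose were higher in Pax5R31Q/- than in Pax5-/- cells. *Pgf*, which encodes placental growth factor, had 15.5 and 15.3 TPM in Pax5R31Q/-, 1.79 and 2.54 in Pax5+/+, 3.77 and 4.96 in Pax5+/- and 1.42 and 1.60 TPM in Pax5-/- cells. It differed by 2.39 ± 0.19 on the log2 scale from Pax5+/+ (adjusted p = 0.00117) and by 2.71 ± 0.19 from Pax5-/- (adjusted p = 9.25e-05), and only the Pax5R31Q/- libraries were above 5 TPM. *Sytl2*, a synaptotagmin-like protein of vesicle docking, had 16.5 and 17.6 TPM in Pax5R31Q/- and between 3.43 and 5.26 TPM in the other 6 libraries. The log2 difference was 2.00 ± 0.15 to Pax5+/+ (adjusted p = 0.000916) and 1.58 ± 0.15 to Pax5-/- (adjusted p = 0.0003). *Cacna1h*, a T-type calcium channel, had 2 members at its TSSs, 498 and 303 bp wide. It had 15.5 and 9.82 TPM in Pax5R31Q/-, 0.9 and 1.62 in Pax5+/+ and 1.88 and 2.31 TPM in Pax5-/- cells, with log2 differences of 2.58 ± 0.27 (adjusted p = 0.00277) and 2.11 ± 0.27 (adjusted p = 0.00108). *Rtn4rl2*, a receptor related to the Nogo receptor, *Aph1b*, a γ-secretase subunit, and *Rbm24*, an RNA-binding protein, were likewise higher than in Pax5-/- cells, by 3.76 ± 0.38, 2.23 ± 0.20 and 1.79 ± 0.39 (adjusted p = 0.000392, 0.000243 and 0.0111). The comparisons with Pax5+/+ and with Pax5-/- share the Pax5R31Q/- libraries.

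The remaining genes that rose included those with higher values in Pax5-/- than Pax5R31Q/- libraries. *Adgrg3*, an adhesion G protein-coupled receptor, had 171 and 173 TPM in Pax5R31Q/-, 52.8 and 73.7 in Pax5+/+ and 572 and 668 TPM in Pax5-/- cells. *Atp8b4*, a phospholipid flippase, had 14.9 and 15.8 TPM, 2.67 and 3.31 TPM and 50.3 and 81.0 TPM in these genotypes. *Ramp1*, a partner of the calcitonin receptor-like receptor, had 109 and 109, 55.9 and 50.9, and 268 and 255 TPM. All 3 had CpG-poor member windows, with ratios of 0.296, 0.392 and 0.242. *Slc9a2*, a sodium-proton exchanger, *Sulf2* and *Ext1*, both enzymes of heparan sulfate, and *Cacnb2*, a calcium channel subunit, had CpG ratios between 0.903 and 0.953. *Cdk6*, a cyclin-dependent kinase of the G1 phase, had 219 and 198 TPM in Pax5R31Q/- and 86.5 and 68.4 TPM in Pax5+/+ cells. The other genes were *Smoc1*, *Tmem119*, *Nmrk1*, *Gpr18*, *Gm12250*, *Gdpd1* and *5730488B01Rik*. *5730488B01Rik* is on the opposite strand within *Pax5*, and *Gpr18* within *Ubac2*. Of the genes described here, *Cacna1h* also overlaps *Tpsg1*, *Bcl2l1* overlaps *Cox4i2* and *Mybpc2* overlaps *Fam71e1* on the opposite strand, and *Adgrg3*, *Cacnb2*, *Cd244a*, *Cdk6*, *Gmpr*, *Mgst2*, *Mical3*, *Nedd9*, *S1pr3*, *Sulf2* and *Tmem108* overlap genes with provisional names or pseudogenes there. *Atp8b4* and *Smoc1* overlap genes of this kind on their own strand. Overlap was judged from whole gene spans, and whether exons overlap was not checked. The strand setting of the counting is not given either. Whether reads of such genes and of their partners were mixed is therefore unknown, and these values are uncertain to that extent.

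**Figure D5:**
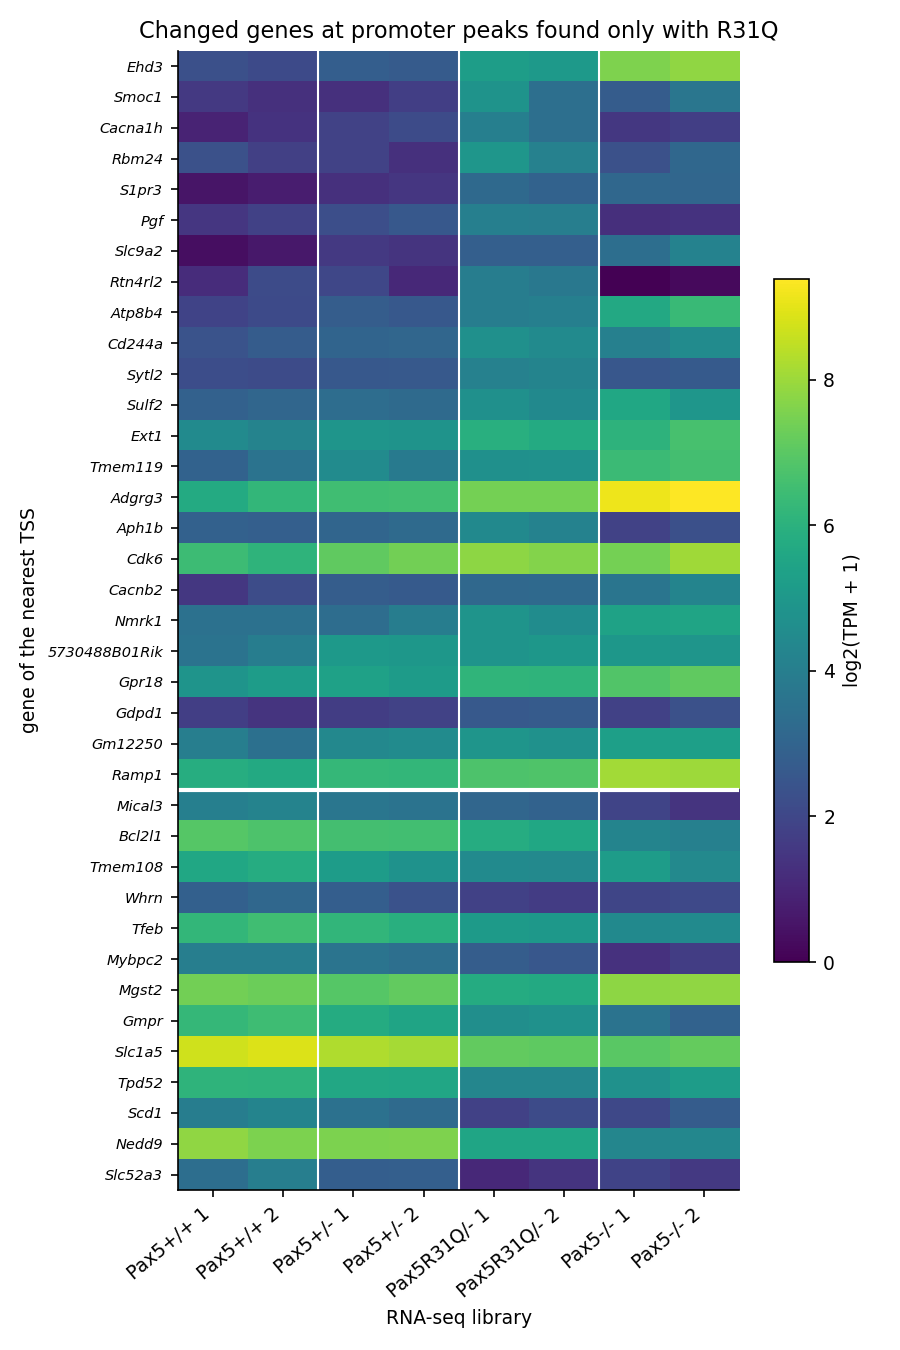
Colors give log2(TPM + 1) of 37 of the 38 genes at promoter peaks found only with R31Q that were called with a difference over 2-fold, in each of the 8 RNA-seq libraries. Genes are ordered by their log2 difference between Pax5R31Q/- and Pax5+/+ cells, with the 24 higher genes above the white line, and *Pgf*, *Sytl2* and *Cacna1h* show their highest values in the Pax5R31Q/- libraries.

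Of the 14 genes that fell by more than 2-fold, 9 also had a Pax5+/+ promoter peak, as did 4 of the 24 that rose and 289 of the 1128 tested genes at members (25.6%). *Nedd9*, an adaptor protein of integrin signaling, had 45.4 and 44.9 TPM in Pax5R31Q/-, 225 and 185 in Pax5+/+, 186 and 189 in Pax5+/- and 18.7 and 19.3 TPM in Pax5-/- cells. It fell by 2.15 ± 0.12 on the log2 scale relative to Pax5+/+ (adjusted p = 0.000313) and remained higher than in Pax5-/- by 1.21 ± 0.12 (adjusted p = 0.000387). The study shows Pax5 sites at *Nedd9* and *Siglecg* that were bound in both cell types or in Pax5+/+ cells only. The member at *Nedd9* was 495 bp wide and 58538 bp from the nearest Pax5+/+ peak. The gene also had a Pax5+/+ promoter peak, which lay at another of its TSSs. *Slc52a3*, a riboflavin transporter, had 1.09 and 1.65 TPM against 9.53 and 15 TPM in Pax5+/+ cells and fell by 2.46 ± 0.25 (adjusted p = 0.00259). *Slc1a5*, the main glutamine transporter of proliferating cells, had 138 and 133 TPM against 422 and 476 TPM, fell by 1.72 ± 0.12 (adjusted p = 0.000785) and differed from Pax5-/- (125 and 143 TPM) by 0.02 ± 0.12 (adjusted p = 0.916). *Mgst2*, a microsomal glutathione transferase, had 54.3 and 51.6 TPM in Pax5R31Q/-, 168 and 154 in Pax5+/+ and 218 and 228 TPM in Pax5-/- cells, so that the mutant had the lowest values of the 4 genotypes. It differed from Pax5-/- by -2.06 ± 0.11 (adjusted p = 4.16e-05).

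*Bcl2l1*, which encodes the survival factor Bcl-xL, had 55.5 and 47.1 TPM in Pax5R31Q/-, 119 and 109 in Pax5+/+ and 17.9 and 16.0 TPM in Pax5-/- cells and fell by 1.14 ± 0.13 (adjusted p = 0.0042). Its member was 176 bp from a Pax5+/+ peak. *Tfeb*, a regulator of lysosomal genes, fell from 72.4 and 89.6 to 33.2 and 31.4 TPM (adjusted p = 0.00433), and *Tpd52* from 67.3 and 65.8 to 18.8 and 18.8 TPM (adjusted p = 0.00167). *Gmpr*, a guanosine monophosphate reductase, *Scd1*, a fatty acid desaturase, *Mybpc2*, *Whrn*, *Tmem108* and *Mical3* also fell. With each of the 4 libraries left out in turn, 12 of the 38 genes were called every time, namely *Ehd3*, *S1pr3*, *Cd244a*, *Pgf*, *Sytl2*, *Cacna1h*, *Ramp1*, *Nedd9*, *Slc52a3*, *Slc1a5*, *Mgst2* and *Tpd52*. The other 26 lost their call in at least 1 of these fits, and 13 of the 38 were called without Pax5R31Q/- replicate 2, 14 without Pax5R31Q/- replicate 1, 20 without Pax5+/+ replicate 2 and 28 without Pax5+/+ replicate 1.

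In Pax5-/- relative to Pax5+/+ cells, 261 of the 1128 genes (23.1%) were higher and 211 (18.7%) lower, against a background of 16.2% and 19.7%. Genes with no promoter peak in either list were higher in 23.1% of the cases too, and genes at distal peaks found only with R31Q in 26.0%. In Pax5R31Q/- relative to Pax5-/- cells, 206 (18.3%) were higher and 231 (20.5%) lower, against 19.9% and 14.7% of all tested genes. Lower genes made up 22.5% of those with no promoter peak in either list and 24.9% of those at distal peaks found only with R31Q. Of these counts, that of genes lower in Pax5-/- than Pax5+/+ depended on single libraries. The same held for genes higher or lower in Pax5R31Q/- than Pax5-/-. The count of genes higher in Pax5-/- than Pax5+/+ changed less when single libraries were left out. The share of all tested genes called in these fits is not given here. The comparison of Pax5-/- with Pax5+/+ shares the Pax5+/+ libraries with that of Pax5R31Q/-. In Pax5+/- relative to Pax5+/+ cells, limma called 0 of the 1128 genes in either direction, with a background of 0.0% higher and 0.0223% lower. At an unadjusted p under 0.05, 42 of the genes at members were higher (3.72%) and 22 lower (1.95%), against 2.91% and 3.15% of all tested genes.

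Lists of genes of B cell biology and of general cell functions were searched for members. Of all 24759 genes of the expression tables with a RefSeq TSS, 5.17% had a member. This includes genes that were not expressed, and of those above 5 TPM in Pax5R31Q/- cells 8.77% to 9.87% had a member, depending on the level. The early B-lineage transcription factors had members at 4 of 31 genes, *Bcl11a*, *Runx1*, *Lef1* and *Fli1*, and 29 of the 31 had a shared promoter peak. *Bcl11a*, which is required for early lymphoid development, was the only gene with 3 members, 1314, 436 and 1203 bp wide, and the nearest Pax5+/+ peak was 57600 to 61202 bp away. It had 84.3 and 76.6 TPM in Pax5R31Q/- and 90.7 and 104 TPM in Pax5+/+ cells, a log2 difference of -0.27 ± 0.16 (adjusted p = 0.393). *Runx1* had 2 members. *Lef1*, a factor of pro-B cell proliferation, had a member of 1052 bp and 383 and 414 TPM against 537 and 669 TPM (adjusted p = 0.403), with 7.41 and 18.2 TPM in Pax5-/- cells. None of these 4 genes passed the test between Pax5R31Q/- and Pax5+/+ cells.

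B cell receptor signaling had members at 3 of 33 genes, the exchange factors *Vav1* and *Vav3* and the PI3 kinase subunit *Pik3cd*, and V(D)J recombination at 3 of 16, *Rag1*, *Hmgb1* and *Poll*. The peak at *Rag1*, the recombinase gene, was 406 bp wide, poor in CpG (ratio 0.111) and 495 bp from a Pax5+/+ peak. *Rag1* had 754 and 700 TPM in Pax5R31Q/- and 687 and 436 TPM in Pax5+/+ cells, values that differed by 0.41 ± 0.21 on the log2 scale (adjusted p = 0.339). Cytokine receptors and JAK-STAT genes had members at 3 of 28 (*Ifnar2*, *Il6ra* and *Stat5b*) and Notch pathway genes at 2 of 21 (*Maml2* and *Nrarp*). The Bcl2 family had members at 4 of 14 genes (28.6%), the survival genes *Bcl2* and *Bcl2l1* and the death-promoting genes *Bbc3* and *Bmf*. Besides *Bcl2l1*, none passed the test. *Bcl2* had 2.11 and 2.20 against 3.62 and 3.49 TPM (adjusted p = 0.15) and *Bmf* 45.4 and 40.1 against 70.6 and 55.5 TPM (adjusted p = 0.161).

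Glycolysis and glucose uptake had members at 5 of 22 genes (22.7%), *Pfkm*, *Pfkp*, *Pgk1*, *Slc2a3* and *Prkaa1*. *Pfkp*, a phosphofructokinase, fell from 33.9 and 34.6 to 22.3 and 20.4 TPM (adjusted p = 0.0279), and the others did not pass the test. DNA replication genes had members at 4 of 46 (*Ccnd3*, *Cdk6*, *E2f2* and *Mcm5*), of which *Cdk6* rose and *E2f2*, an activator of S phase genes, fell from 331 and 284 to 202 and 209 TPM (adjusted p = 0.0311). With each of the 4 libraries compared left out in turn, the adjusted p of limma was 0.0593 to 0.248 for *Pfkp*, and for *E2f2* 0.0472 without Pax5+/+ replicate 2 and 0.0608 to 0.222 without the others. Factors of T, NK, myeloid and erythroid cells had members at 3 of 20 genes, *Cebpa*, *Cebpd* and *Klf1*, at mean levels of 1.64, 1.56 and 5.83 TPM in Pax5R31Q/- cells, and none passed the test. Members were also found at *Chek1* (1 of 28 DNA damage genes), *Bmi1* and *Dnmt3a* (2 of 34 chromatin silencing genes) and *Arid1a* and *Arid1b* (2 of 41 remodeler genes), and at 0 of 11 genes of the Myc family, each of which had a shared promoter peak.

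Among larger groups of genes, members were at 7 of 85 cytosolic ribosomal protein genes, 37 of 396 zinc finger genes of the Zfp series (9.34%), 18 of 181 splicing and RNA-binding factors (9.94%, the last 2 shares being close to those of all genes above 5 TPM), 25 of 376 solute carriers, 26 of 349 ubiquitin pathway genes and 4 of 94 respiratory chain genes. None of the tested genes with a member among the ribosomal protein genes (6 tested) and zinc fingers (36 tested) passed the test of limma in either direction, at the background of 1.62% higher and 2.55% lower among all tested genes. Of the 24 tested solute carriers with a member, *Slc9a2* and the X-linked *Slc25a53*, named here after its value was seen, rose and *Slc1a5* and *Slc52a3* fell.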

How the data were processed

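Pax5 ChIP-seq peaks (1 library per genotype) and RNA-seq values (2 libraries per genotype) of mouse pro-B cells were analysed as deposited. The peak lists were made by the authors with Bowtie2 2.3.5.1, SAMtools 1.9, Picard 2.18.27 and MACS on mm10, per their processing notes and methods. The methods equalise read numbers by down-sampling where samples are compared, and whether this holds for these lists is not given in the sources used here. The deposited score column is 0 throughout, so the peaks carry no heights and the depth behind them is unknown. The TPM values were computed by the authors from poly(A) RNA reads aligned with STAR 2.4.2 and counted per RefSeq gene with featureCounts, with no strand setting given in the sources used here, and read totals were not analysed here.

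Peaks were called overlapping when they shared at least 1 base and promoter peaks when a base lay within 1 kb of a RefSeq TSS. GRCm38 sequence was read in 300-bp windows around peak midpoints. Differences in expression were fitted on log2(TPM + 1) by limma (version 3.58.1, R 4.3.3), over all 4 genotypes and genes with at least 1 TPM in at least 1 library. Python 3.11.15, pandas 2.3.3, numpy 2.4.6, pysam 0.24.0 and matplotlib 3.10.9 were used, and scripts were tested on simulated data.

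Genes were named for the 10 widest members, for a call with over 2-fold difference and a mean above 5 TPM, for the 5 highest levels, for membership in gene lists, for mention by the study or for the closest consensus matches (up to 5). The members and lists were chosen with earlier results of these data known. Alternatives varied the window, overlap rule, TSS set, filter, pseudocount, scaling, model and libraries. For 1 of the called genes the result is not reported here.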

Additional observations from a re-analysis of the deposited data

How the results depend on the processing

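The number of promoter peaks found only with R31Q rose from 1491 to 2630 when overlaps under 0.5 of both peaks were allowed, and lay between 1250 and 1957 under the other rules for windows, TSS sets, gaps, widths and chromosomes. The restriction to autosomes was chosen after seeing the data. Restricted to genes without a Pax5+/+ promoter peak, the lower genes numbered 11 in Pax5R31Q/- and 139 in Pax5-/- relative to Pax5+/+, which is 1.31% and 16.6% of 839 genes against 2.22% and 18.7% of 1128. The cause was not tested. With each Pax5+/+ and each Pax5R31Q/- library left out in turn, 5 to 29 genes were lower and 8 to 26 higher in Pax5R31Q/- than Pax5+/+. With the Pax5-/- libraries also left out in turn, which was chosen after seeing the data, 134 to 318 were lower and 209 to 261 higher in Pax5-/- than Pax5+/+, and 136 to 242 lower and 76 to 344 higher in Pax5R31Q/- than Pax5-/-. A lone library was then assumed to vary like the other groups. None of the 38 genes called over 2-fold, nor *Crip1*, *Pfkp* or *E2f2*, changed direction between Pax5R31Q/- and Pax5+/+ under the alternatives run. The other named genes were not rerun one by one. Over all tested genes the median log2 difference between Pax5-/- and Pax5+/+ was -0.11. No paired analysis was possible because the labels carry no replicate numbers, and those used here only follow the order of the samples. With 1 ChIP-seq library per genotype and no peak heights, the reproducibility of the sites could not be assessed.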
